A study of Mus musculus with 10 samples.

Results

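The MHC class II presentation genes are 9 of the 55536 genes counted in mouse bladder RNA, chosen by name for their place in one pathway: Cd74, H2-Aa, H2-Ab1, H2-Eb1, H2-DMa, H2-DMb1, H2-Oa, H2-Ob and Ciita. All 9 were expressed above the filter on low counts in every comparison. The study asked what the loss of either of 2 secreted small leucine-rich proteoglycans, osteomodulin (OMD) or PRELP, does to gene expression in the bladder. It compared C57BL/6 mice (C57BL/6J in the paper) of 3 genotypes by poly(A) RNA sequencing, wild type (WT, 4 libraries), OMD-/- (3 libraries) and PRELP-/- (3 libraries, whose genotype label is spelled PRLEP-/-). Both knockouts were constitutive, in every cell of the mouse, with the coding exons replaced by a β-galactosidase gene, so no promoter or Cre limited the deletion to one cell type. The labels call every sample bladder tissue where the paper names isolated epithelia, and neither gives the age of these mice. The paper also gives other numbers of samples for WT and OMD-/-, and the labels were followed.

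Each library was taken as one replicate. Nothing in the labels says that libraries came from separate mice, so the p-values here measure only the spread between these libraries, which may be technical. In bulk RNA, a change in the number of cells of a type and a change in the RNA per cell cannot be told apart.

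MHC class II molecules show peptides from engulfed or membrane proteins to CD4 T cells, and they are found mainly on dendritic cells, macrophages and B cells, while other cells can be made to express them by interferon gamma. An alpha and a beta chain pair in the endoplasmic reticulum around the invariant chain (Cd74), which blocks the groove and takes the complex to the endosome. There the invariant chain is cut down by cathepsins, H2-DM exchanges its last fragment for antigen peptide, and H2-O holds H2-DM back, chiefly in B cells. Ciita is the coactivator that the promoters of these genes need. It does not bind DNA itself but docks on RFX, CREB and NF-Y proteins seated on a shared promoter module, in which an X box lies upstream of a Y box, the reverse CCAAT box bound by NF-Y.

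The 7 H2 genes lie close together on chromosome 17 (build GRCm38, GENCODE vM21), from H2-Oa at 34092340 to 34095234 (ENSMUSG00000024334, plus strand) to H2-Eb1 at 34305867 to 34316674 (ENSMUSG00000060586, plus strand). Between them, in this order, are H2-DMa at 34119541 to 34139101 (ENSMUSG00000037649), H2-DMb1 at 34153072 to 34160230 (ENSMUSG00000079547), H2-Ob at 34238903 to 34254414 (ENSMUSG00000041538), H2-Ab1 at 34257689 to 34269419 (ENSMUSG00000073421) and, on the minus strand, H2-Aa at 34282744 to 34287823 (ENSMUSG00000036594). Cd74 (ENSMUSG00000024610) is on another chromosome, and Ciita is on chromosome 16 at 10480059 to 10528418 (ENSMUSG00000022504).

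The RefSeq promoter windows (build GRCm38.p6, 250 bases before to 50 after the annotated start) were searched for letters of this module, and those of 4 members and of the further beta chain gene H2-Eb2 are shown because Ciita, described last among the members, acts through it. Each line gives 55 bases on the strand of the gene, and capitals mark the Y box letters ATTGG and any exact copy of AGNAACNG, a core of the X box.
H2-Aa, chr17:34287862-34287916, minus strand: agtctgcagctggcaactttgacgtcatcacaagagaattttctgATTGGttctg
H2-Eb1, chr17:34305763-34305817, plus strand: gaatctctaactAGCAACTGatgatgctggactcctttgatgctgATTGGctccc
H2-Oa, chr17:34092291-34092345, plus strand: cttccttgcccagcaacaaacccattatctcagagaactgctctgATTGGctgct
H2-Ob, chr17:34238803-34238857, plus strand: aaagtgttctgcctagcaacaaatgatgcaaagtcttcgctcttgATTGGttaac
H2-Eb2, chr17:34325530-34325584, plus strand: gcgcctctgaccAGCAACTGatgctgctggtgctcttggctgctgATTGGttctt

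Of the 6 fixed letters of that core, H2-Eb1 and H2-Eb2 matched all 6 at 33 bases before the Y box. H2-Oa matched 5 at 34 bases, H2-Ob matched 5 at 31 bases and H2-Aa matched 4 at 34 bases. H2-DMb1, not printed, matched all 6 at 34 bases. No background share was computed for the partial matches of 4 or 5 letters. The exact core starting 33 or 34 bases before ATTGG was found in 6 of 32851 promoter windows (0.0183%), a spacing chosen after these sequences had been seen. Besides H2-Eb1, H2-Eb2 and H2-DMb1 these were Mir155hg, Mylk4 and 4930477N07Rik. Taken alone, in either direction, the Y box letters (ATTGG or CCAAT) were in 37.4% of windows and the core (AGNAACNG or CNGTTNCT) in 17.4%. A match of letters is a description and does not show that a factor binds. Of the pair of windows listed for H2-DMa, one held the Y box letters and neither the core. H2-Ab1 and Ciita were not matched in the promoter table, and Cd74 was not searched.

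Some facts of the libraries touch every result below. Total counts ran from 20391437 to 46269079 per library, with WT replicate 1 the deepest. Levels are in CPM, the counts scaled to a common library size, and 3 counts, taken as the floor of detection, were worth 0.0598 to 0.17 CPM. Omd had 0 counts in all 3 OMD-/- libraries, but it was at only 0 to 0.531 CPM in WT, with 0 counts in 1 WT library, too low to check the OMD-/- label. Prelp, which checks the PRELP-/- label, was at 1.84 to 4.2 CPM in PRELP-/- against 214 to 317 in WT. All 10 urothelium markers (uroplakins, keratins and Psca) were detected in every library, with a sum of 13149 to 30295 CPM, beside 6 of 6 smooth muscle markers at 223 to 1176 CPM in sum. Libraries fell into near pairs within their groups. The chi-square between libraries per gene, which is 1 for counting noise alone, was 3.23 between OMD-/- 2 and 3, 3.82 between PRELP-/- 2 and 3, 9.34 between WT 3 and 4, and 12.7 between WT 1 and 2. OMD-/- replicate 1 was nearer to PRELP-/- 2 (13.1) and 3 (17.5) than to OMD-/- 2 (29.9) and 3 (27.2), and PRELP-/- replicate 1 stood far from all others (at least 213). Summed Y-chromosome transcripts also divided the groups, with 188 and 163 CPM in WT 1 and 2 against 0 and 0.0442 in WT 3 and 4. They were at 120, 18.7 and 18.5 CPM in PRELP-/- and at 18.1, 0.805 and 0.73 CPM in OMD-/-. Xist, an X-chromosome transcript, was at 2.13, 5.63, 1020 and 1230 CPM in WT. It was at 0.397, 48.5 and 55.4 CPM in PRELP-/- and at 38.2, 88.7 and 76.6 CPM in OMD-/-. These sex genes thus differed both within and between genotypes.

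In WT bladder the class II genes covered a wide range of levels. On the scale of CPM per kilobase of merged exons (RPKM), which divides by the annotated length of each gene, the order was Cd74 (192 ± 12.1, SD, n = 4), H2-Eb1 (84.2 ± 4.31), H2-Ab1 (57.2 ± 4.04), H2-Aa (54.2 ± 10.7), H2-DMb1 (7.39 ± 1.24), H2-DMa (3.59 ± 0.608), Ciita (0.958 ± 0.067), H2-Oa (0.786 ± 0.184) and H2-Ob (0.373 ± 0.036). The invariant chain thus led the classical chains, then came H2-DM, then Ciita and H2-O. Neighbours in this order kept it in 10 of 10 libraries, with the exception of 2 pairs whose WT ranges overlapped: H2-Ab1 was above H2-Aa in 7 of 10 libraries, and Ciita was above H2-Oa in 3 of 10, none of them OMD-/-. The order within these classes depended on the annotated lengths. In mean WT CPM, without lengths, H2-Aa (206) was above H2-Eb1 (164) and H2-Ab1 (147). H2-DMa and H2-DMb1 were both at 12.4 CPM, and H2-Ob (2 CPM) was above H2-Oa (1.11 CPM). Cd74, H2-Aa, H2-Ab1 and H2-Eb1 together took 95.5 to 96.9% of the counts of all 9 genes in each library.

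In OMD-/- bladders the class II genes were higher as a group. In the quasi-likelihood test of edgeR, adjusted by Benjamini-Hochberg over 16647 genes, 8 of the 9 rose in OMD-/- against WT at an adjusted p under 0.05 and none fell, where 14.3% of all tested genes rose. In all 8, every OMD-/- library was above every WT library, as in 19.3% of all tested genes. The median log2 fold change was 1.02 over the 9 genes and -0.00 over all tested genes. Ciita alone did not pass.

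**Figure D1:**
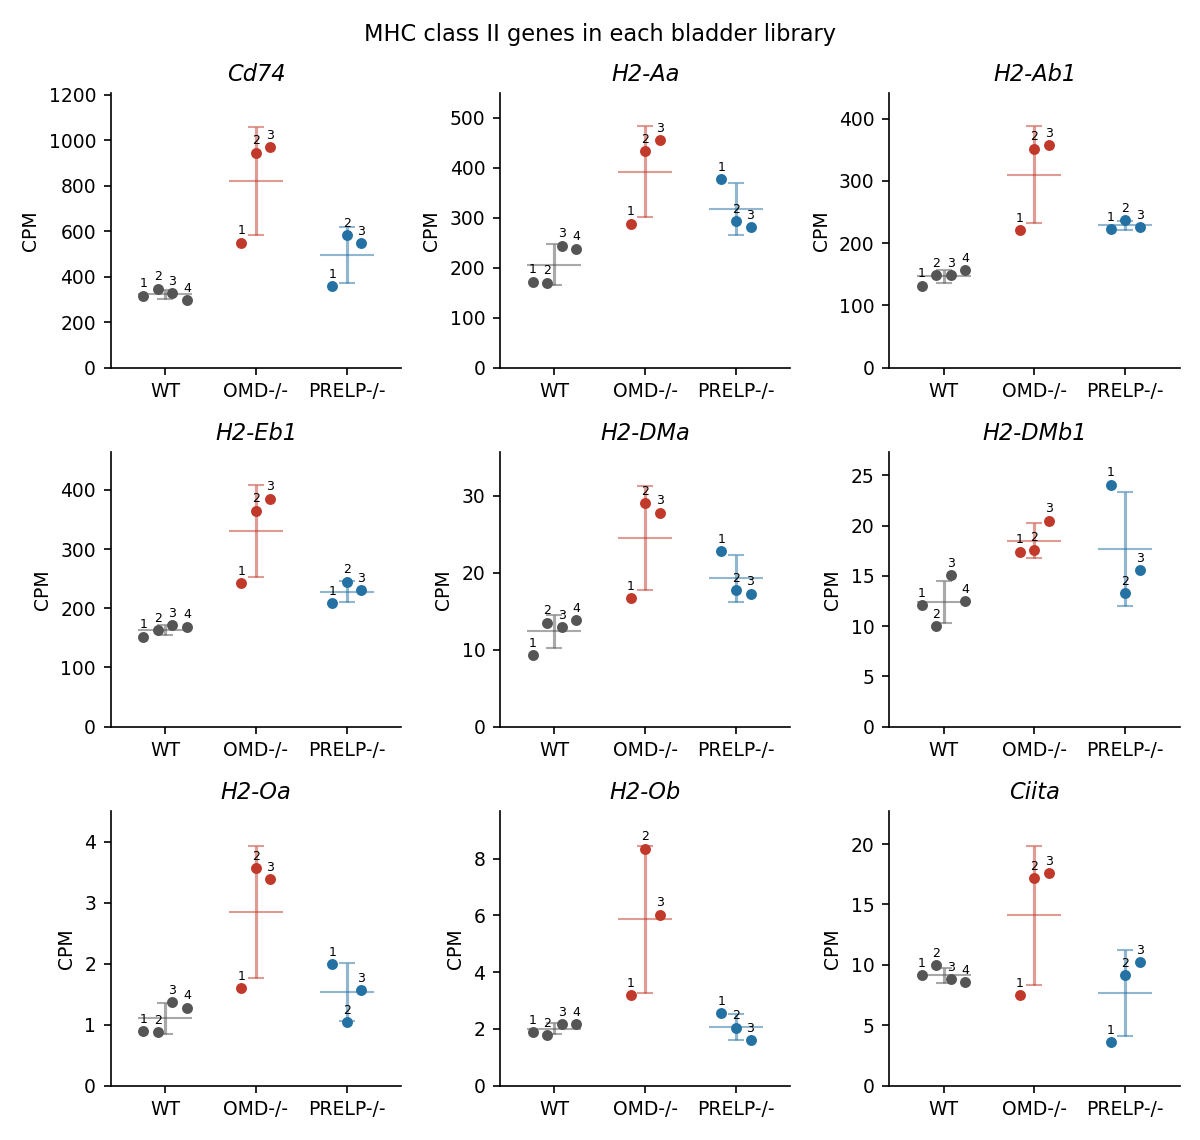
Level of each of the 9 class II genes in CPM (linear axis from 0) in every library, numbered by replicate, with the mean (bar) and SD (whisker) of each genotype. Cd74 lies at 298 to 347 CPM in WT and at 549, 946 and 970 in OMD-/-, and for most genes OMD-/- 2 and 3 stand above OMD-/- 1.

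Cd74, the invariant chain gene (chromosome 18, 60803848 to 60812652, plus strand), was at 317, 347, 329 and 298 CPM in the WT libraries, at 549, 946 and 970 CPM in OMD-/- and at 357, 584 and 548 CPM in PRELP-/-. Both knockouts lay above all WT libraries, OMD-/- 2 and 3 highest and PRELP-/- 1 just over the WT range. It rose 2.55-fold in OMD-/- (log2 fold change 1.35 ± 0.18, SE, edgeR adjusted p = 0.000539). In PRELP-/- the log2 fold change was 0.60 ± 0.20 and did not pass (edgeR adjusted p = 0.097).

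H2-Ab1, the beta chain of the I-A molecule, was at 132, 149, 149 and 157 CPM in WT, at 221, 352 and 358 CPM in OMD-/- and at 223, 237 and 226 CPM in PRELP-/-. The PRELP-/- libraries formed a tight cluster above WT, and OMD-/- 1 lay beside them. H2-Ab1 rose 2.12-fold in OMD-/- (log2 fold change 1.08 ± 0.16, edgeR adjusted p = 0.000898). It was the 1 class II gene that rose in PRELP-/- too, by 1.54-fold (0.62 ± 0.13, edgeR adjusted p = 0.0215).

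H2-Aa, the alpha chain that pairs with it, was at 172, 170, 244 and 238 CPM in WT, at 288, 433 and 455 CPM in OMD-/- and at 377, 293 and 281 CPM in PRELP-/-. The WT libraries split into the pairs 1 and 2 against 3 and 4, and all 6 knockout libraries were above both. It rose 1.9-fold in OMD-/- (log2 fold change 0.93 ± 0.19, edgeR adjusted p = 0.00575), while the PRELP-/- value of 0.60 ± 0.19 did not pass (edgeR adjusted p = 0.0897). The ratio of H2-Aa to H2-Ab1 on the RPKM scale was 0.772 to 1.11 in WT, 0.831 to 0.88 in OMD-/- and 0.836 to 1.14 in PRELP-/-, so the ranges of the 3 genotypes overlapped.

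H2-Eb1, the beta chain of I-E, was at 152, 163, 171 and 169 CPM in WT, at 242, 365 and 385 CPM in OMD-/- and at 209, 245 and 230 CPM in PRELP-/-. Mice of the C57BL/6 strain carry a defective E alpha gene, and H2-Ea-ps had 0 counts in all 10 libraries. H2-Eb1 rose 2.02-fold in OMD-/- (log2 fold change 1.02 ± 0.15, edgeR adjusted p = 0.000796). Its PRELP-/- value was 0.46 ± 0.13 (edgeR adjusted p = 0.0656), with no overlap of the libraries.

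Both chains of H2-DM, the peptide editor, rose in OMD-/-. H2-DMa was at 9.29, 13.5, 12.9 and 13.8 CPM in WT, at 16.7, 29 and 27.8 CPM in OMD-/- and at 22.8, 17.7 and 17.3 CPM in PRELP-/-. OMD-/- 1 was the lowest of all knockout libraries for this gene and still above WT. The rise in OMD-/- was 1.99-fold (log2 fold change 0.99 ± 0.21, edgeR adjusted p = 0.00589), and the PRELP-/- value of 0.62 ± 0.18 did not pass (edgeR adjusted p = 0.078). H2-DMa shares 360 exon bases with Brd2 on the other strand, and Brd2, at 226 to 269 CPM in WT, was at 136 to 155 CPM in OMD-/- and at 75.4 to 143 CPM in PRELP-/-.

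H2-DMb1 was at 12.1, 10, 15.1 and 12.5 CPM in WT, at 17.4, 17.6 and 20.5 CPM in OMD-/- and at 24.1, 13.3 and 15.6 CPM in PRELP-/-. Here the 3 OMD-/- libraries were alike, and PRELP-/- 1 was the highest of all. Its 1.49-fold rise was the smallest of the 8 (log2 fold change 0.58 ± 0.15, edgeR adjusted p = 0.0134), and it was lost without OMD-/- 3 (edgeR adjusted p = 0.0715). Its near-identical neighbour H2-DMb2 rose by 1.98 ± 0.33 (log2, edgeR adjusted p = 0.00182), from 1.83 to 2.57 CPM in WT to 4.1, 11.1 and 11.6 CPM in OMD-/-. Since reads of the 2 beta chain genes can be assigned to either, their separate values are uncertain.

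H2-O, the inhibitor of H2-DM, was the least abundant pair on the RPKM scale. H2-Oa was at 0.897, 0.873, 1.37 and 1.28 CPM in WT, at 1.6, 3.56 and 3.38 CPM in OMD-/- and at 1.99, 1.04 and 1.56 CPM in PRELP-/-, from 20 to 84 counts per library. It rose 2.6-fold in OMD-/- (log2 fold change 1.38 ± 0.33, edgeR adjusted p = 0.0111), which did not pass without OMD-/- 2 (edgeR adjusted p = 0.0609) or without OMD-/- 3 (edgeR adjusted p = 0.0563). The PRELP-/- value was 0.44 ± 0.32, with overlapping libraries.

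H2-Ob was at 1.89, 1.79, 2.17 and 2.17 CPM in WT, at 3.2, 8.35 and 6.03 CPM in OMD-/- and at 2.55, 2.04 and 1.61 CPM in PRELP-/-. It rose 2.93-fold in OMD-/- (log2 fold change 1.55 ± 0.29, edgeR adjusted p = 0.00313), the highest value of the 9 in this fit. Without OMD-/- 2 it was 1.21, and Cd74 was then higher at 1.24. In PRELP-/- the value was 0.02 ± 0.24, with a 95% interval of -0.52 to 0.56. PRELP-/- libraries lay on both sides of the WT range.

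Ciita, the coactivator, was at 9.13, 10, 8.81 and 8.58 CPM in WT, at 7.49, 17.2 and 17.6 CPM in OMD-/- and at 3.58, 9.17 and 10.2 CPM in PRELP-/-. OMD-/- 1 lay under all WT libraries while OMD-/- 2 and 3 lay above them, and PRELP-/- 1 was the lowest of the 10 with 63 counts. Its log2 fold change was 0.63 ± 0.25 in OMD-/- (edgeR adjusted p = 0.088) and -0.26 ± 0.32 in PRELP-/- (edgeR adjusted p = 0.635). Ciita shares 329 exon bases with Dexi on the other strand, which was at 30.6 CPM in PRELP-/- 1 and at 11.8 to 17 CPM in the other 9 libraries. Without OMD-/- 1 the value of Ciita became 0.94 (edgeR adjusted p = 0.00095), and against OMD-/- 1 alone it was -0.29 (edgeR adjusted p = 0.45).

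**Figure D2:**
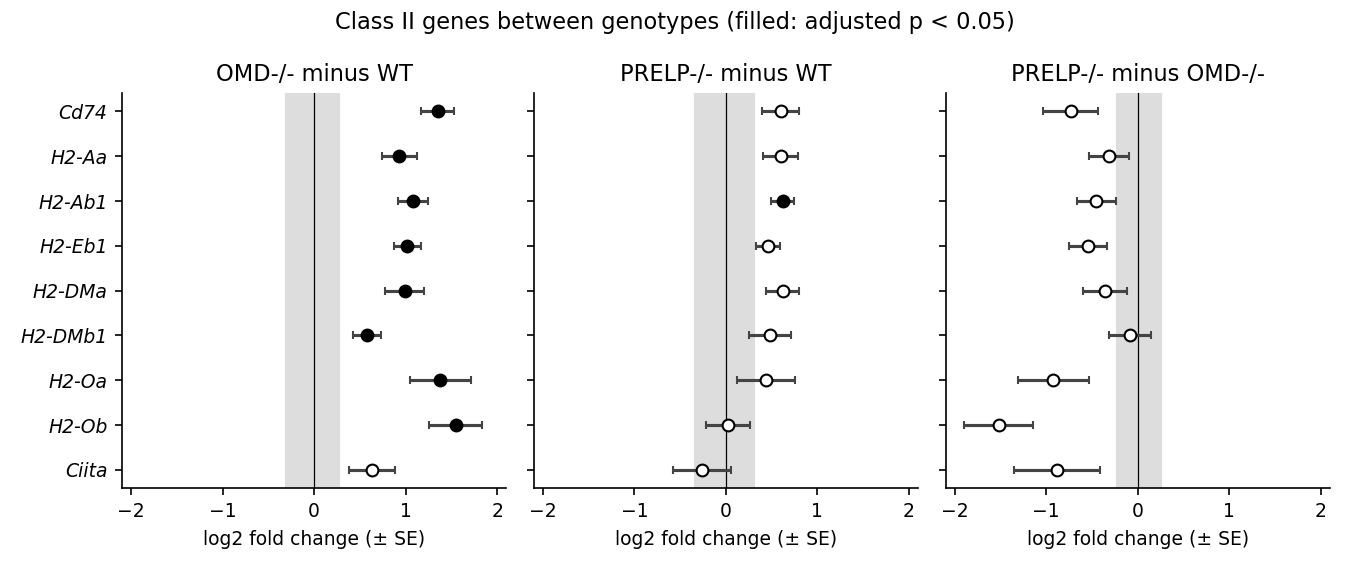
Log2 fold change with its SE for the 9 class II genes in the 3 comparisons, filled where the adjusted p was under 0.05, with the grey band covering the middle 50% of all tested genes. In OMD-/- 8 of 9 are filled, from 0.58 (H2-DMb1) to 1.55 (H2-Ob), in PRELP-/- only H2-Ab1 (0.62) is, and between the knockouts none is.

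In PRELP-/- bladders 1 of the 9 genes rose, H2-Ab1, and none fell (edgeR), where 1.4% of 16581 tested genes rose. In 5 genes (Cd74, H2-Aa, H2-Ab1, H2-Eb1 and H2-DMa) every PRELP-/- library was above every WT library, as in 13.6% of all tested genes. The median log2 fold change of the 9 genes was 0.48, beside 0.02 over all tested genes, and 5 had an unadjusted p under 0.05 by edgeR. The call of H2-Ab1 was lost when any 1 library other than PRELP-/- 1 was left out (edgeR adjusted p from 0.0601 to 0.0866). Without PRELP-/- 1, Cd74, H2-Ab1 and H2-Eb1 rose, with Cd74 at 0.82 (edgeR adjusted p = 0.000454) and H2-Eb1 at 0.55 (edgeR adjusted p = 0.00286). In that fit 1835 of 17120 tested genes rose, against 232 of 16581 with all libraries. DESeq2 called 5 of the 9 higher, where it called 7.13% of all tested genes higher, and limma-voom with sample quality weights also called 5, where it called 20.5% of all tested genes higher. The comparisons of either knockout with WT share the 4 WT libraries.

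PRELP-/- was compared directly with OMD-/-, with no WT library in the fit. All 9 values were lower in PRELP-/-, from -0.08 (H2-DMb1) to -1.52 (H2-Ob), with a median of -0.54 beside -0.00 over 15805 tested genes. None of the 9 passed by edgeR, where 0.00633% of all genes did, a single gene, Prelp itself, and 3 of the 9 had an unadjusted p under 0.05. With replicate numbers as a block, 43 genes and again none of the 9 passed. Limma-voom with sample quality weights called 8 of the 9, where it called 1012 of 15805 tested genes. H2-Ob was the 1 member with every PRELP-/- library below every OMD-/- library, as in 8.71% of all genes (95% interval of its log2 difference -2.42 to -0.61, edgeR adjusted p = 0.69). For Cd74 the interval was -1.45 to -0.01, for H2-Ab1 -0.95 to 0.06 and for H2-DMb1 -0.63 to 0.47. With a Y gene covariate the median of the 9 was -0.03. Every PRELP-/- library (18.5 to 120 CPM) was above every OMD-/- library (0.73 to 18.1 CPM) in summed Y genes. That fit therefore cannot separate Y gene level from genotype. With OMD-/- 1 as the sole OMD-/- library the median was 0.00.

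The level of the whole set was uneven within OMD-/-. Summed over the 4 leading genes it was 773, 829, 893 and 862 CPM in WT, 1300, 2096 and 2168 CPM in OMD-/- and 1166, 1360 and 1285 CPM in PRELP-/-. OMD-/- 1 thus lay inside the PRELP-/- range. With OMD-/- 1 as the sole OMD-/- library, which has no spread of its own, the median log2 fold change of the 9 was 0.54. Cd74 was then at 0.76, H2-Ab1 at 0.59 and H2-Eb1 at 0.56. Without OMD-/- 1 all 9 passed, with a median of 1.22, where 2335 of 17298 tested genes rose. Summing the near pairs of libraries into 1 each, which treats them as single samples, left 4 of 9 passing in OMD-/- and 0 in PRELP-/-. In those fits 624 of 18310 and 0 of 18335 tested genes rose. The fits with OMD-/- 1 alone and with summed pairs were chosen after the data had been seen.

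Ratios within a library show how the members stood to each other. The ratio of H2-DM (H2-DMa plus H2-DMb1) to H2-O (H2-Oa plus H2-Ob), on the RPKM scale, was 10, 10.4, 9.22 and 8.7 in WT, 11.1, 11.6 and 10.2 in PRELP-/- and 8.77, 4.63 and 5.75 in OMD-/-. OMD-/- 2 and 3 were below every other library, and OMD-/- 1 was inside the WT range. The ratio of H2-Ab1 to its coactivator Ciita was 53.9 to 67.9 in WT, 110, 76 and 75.5 in OMD-/- and 231, 96.1 and 82.1 in PRELP-/-. All 6 knockout libraries were above all 4 WT libraries, the library with the lowest Ciita (PRELP-/- 1) most. No test was made of these ratios.

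**Figure D3:**
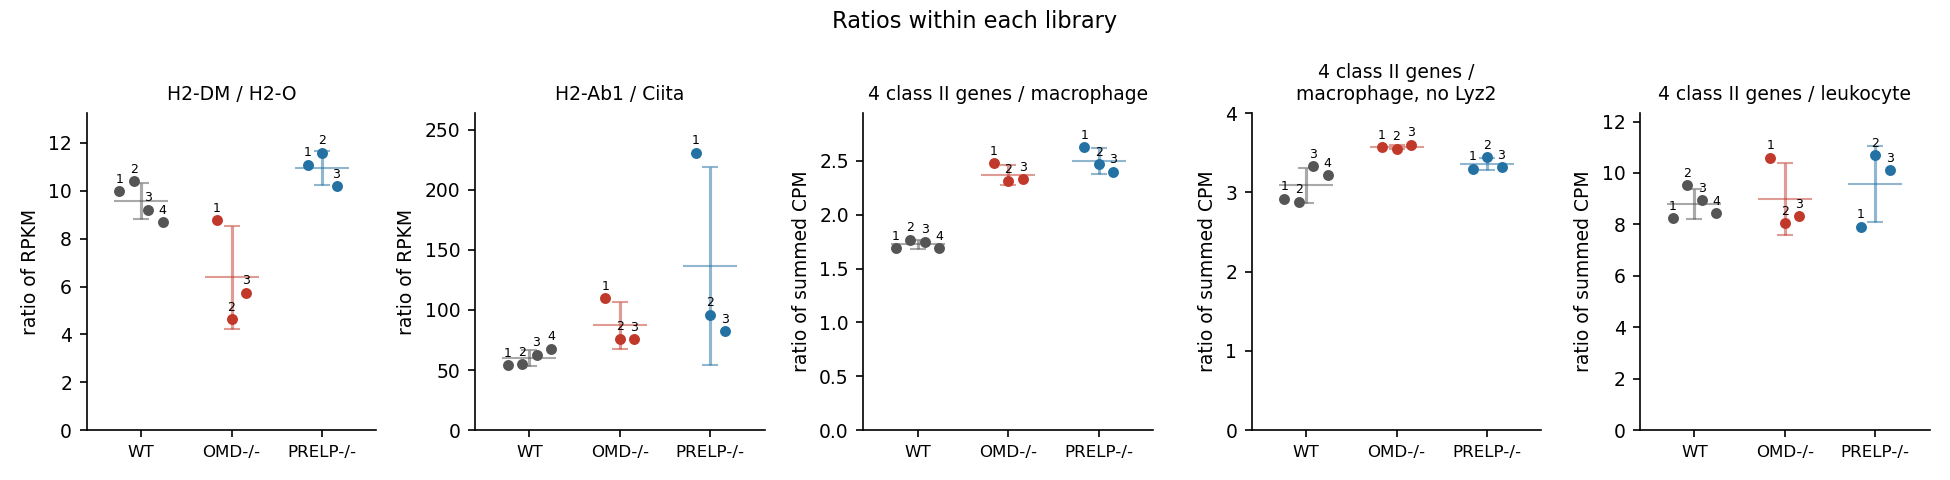
Ratios within each library (numbered by replicate), with mean and SD per genotype, all axes from 0. The ratio of H2-DM to H2-O is low in OMD-/- 2 and 3 (4.63 and 5.75), and the ratio of the 4 leading class II genes to macrophage markers is 1.69 to 1.77 in WT and 2.31 to 2.63 in the knockouts, but without Lyz2 in the marker list it is 2.88 to 3.33 in WT and 3.3 to 3.44 in PRELP-/-, which overlap, and 3.55 to 3.6 in OMD-/-.

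The steps before and after peptide loading were followed in lists of further genes. Of 8 genes of class II processing and turnover, 5 rose in OMD-/- and none fell (edgeR, median 0.64). Over all tested genes 14.3% rose in OMD-/- and 1.4% in PRELP-/-. Ctsb rose by 0.73 ± 0.09 (edgeR adjusted p = 0.000233), Lgmn by 0.74 ± 0.11 (edgeR adjusted p = 0.00104), Ctsl by 0.50 ± 0.08 (edgeR adjusted p = 0.00132) and Ifi30, the thiol reductase of the endosome, by 0.88 ± 0.14 (edgeR adjusted p = 0.00116). The fifth was Ctss, the cathepsin that trims the invariant chain, at 32.9 to 48.6 CPM in WT and at 51.2, 151 and 155 CPM in OMD-/- (1.52 ± 0.39, edgeR adjusted p = 0.0283), a call lost under 12 of 19 alternatives. In PRELP-/- Ifi30 was the 1 of these 8 that rose, by 0.59 ± 0.13 (edgeR adjusted p = 0.0287), lost under 12 of 18 alternatives.

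Of the 7 promoter factors (Rfx5, Rfxank, Rfxap, Nfya, Nfyb, Nfyc and Creb1) none passed in any comparison by edgeR, and none had an unadjusted p under 0.05, with medians of 0.05 in OMD-/- and -0.03 in PRELP-/-. Of 7 tested genes of interferon gamma signalling to Ciita, Jak1 (0.43 ± 0.08, edgeR adjusted p = 0.00393) and the receptor chain Ifngr1 (0.37 ± 0.12, edgeR adjusted p = 0.0318) rose in OMD-/-, and the call of Ifngr1 was lost under 9 of 19 alternatives. Irf1 (0.10 ± 0.14) did not pass, and Ifng itself was at 0 to 0.137 CPM, at or near the floor of 3 counts, in all libraries. In PRELP-/- none of the 7 passed by edgeR, and none had an unadjusted p under 0.05. Of 5 leukocyte regulators of Ciita, 4 rose in OMD-/- (edgeR): Irf4 by 1.06 ± 0.20, Irf8 by 0.40 ± 0.10, Spi1 by 0.75 ± 0.24 and Pax5, the B cell factor, by 3.84 ± 0.73. The fifth, Prdm1, was at 0.75 ± 0.26 and did not pass (edgeR adjusted p = 0.0512). The call of Spi1 was lost under 9 of 19 alternatives. None of the 5 passed in PRELP-/-. Beside both lists, 14.3% of all tested genes rose in OMD-/- and 1.4% in PRELP-/-.

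The class I pathway, which shows peptides from the cytosol to CD8 T cells, was followed beside it. Of its 10 listed genes, 7 rose and 1 fell in OMD-/- (edgeR, median 0.43), where 2377 of 16647 tested genes rose and 2522 fell. Tapbp rose by 0.79 ± 0.09 (edgeR adjusted p = 0.000217), the immunoproteasome subunit Psmb8 by 0.60 ± 0.10 (edgeR adjusted p = 0.00174) and the class I chain H2-D1 by 0.44 ± 0.10 (edgeR adjusted p = 0.00624). The gene that fell was Nlrc5, the class I counterpart of Ciita, from 33.7 to 37.8 CPM in WT to 18.4, 25.6 and 24.6 CPM in OMD-/- (-0.64 ± 0.12, edgeR adjusted p = 0.00355). It was at 7.21, 22.3 and 19.6 CPM in PRELP-/-, again under all WT libraries (-1.13 ± 0.34, edgeR adjusted p = 0.0786). None of the 10 class I genes passed in PRELP-/-, and 5 had an unadjusted p under 0.05 by edgeR.

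Within the class II region, Psmb9, between H2-DMb1 and H2-Ob, had a log2 fold change of 0.03 ± 0.15 in OMD-/- (edgeR adjusted p = 0.901). Its neighbours Tap1 (0.42 ± 0.12, edgeR adjusted p = 0.0253), Psmb8 and Tap2 (0.46 ± 0.11, edgeR adjusted p = 0.0112) rose in OMD-/-, with values from 0.42 to 0.60 where the 7 H2 members had 0.58 to 1.55, a difference that was not tested. Of 19 alternatives, Tap1 lost its call under 6, Tap2 under 4 and Psmb8 under 2. Psmb9 and Tap1 share 212 exon bases on opposite strands, so their separate values are uncertain. Brd2, a chromatin reader and not an antigen presentation gene, fell in both knockouts, by 0.76 on the log2 scale in OMD-/- (edgeR adjusted p = 0.00023) and by 1.09 in PRELP-/- (edgeR adjusted p = 0.0276), where the call was lost under 10 of 18 alternatives.

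**Figure D4:**
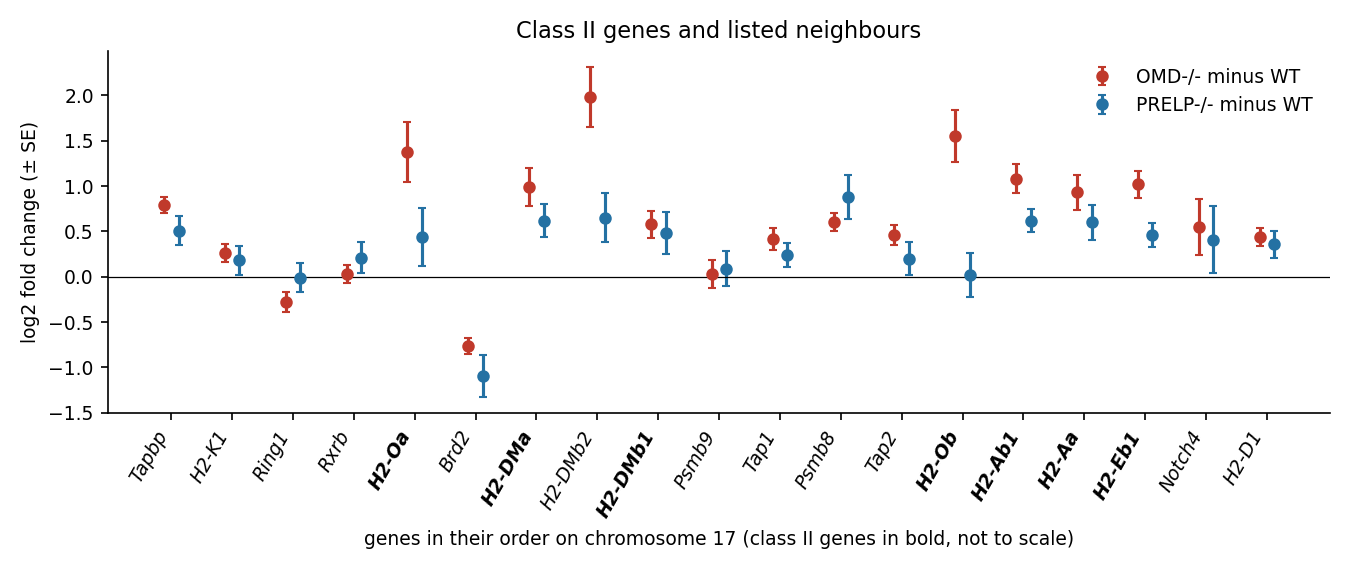
Log2 fold change with its SE against WT for the H2 members (bold) and listed genes of the region, in their order on chromosome 17 with even spacing, OMD-/- and PRELP-/- side by side. Brd2, beside H2-DMa, is negative in both (-0.76 and -1.09), and Psmb9 (0.03 in OMD-/-) lies near 0 amid the class II genes.

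Markers of the cells that carry class II were examined beside these genes. As a background for each list, 14.3% of all tested genes rose in OMD-/- and 1.4% in PRELP-/-. In OMD-/- 7 of 10 macrophage markers rose and none fell (edgeR, median 0.97), among them C1qa (1.28 ± 0.18, edgeR adjusted p = 0.00079), Adgre1 (2.01-fold, edgeR adjusted p = 0.00152), C1qc (0.95 ± 0.15, edgeR adjusted p = 0.00161) and Csf1r (1.13 ± 0.18, edgeR adjusted p = 0.00179). All 5 tested B cell markers rose (median 3.56), with Ms4a1 at 4.99 ± 0.85 (edgeR adjusted p = 0.00402) and Cd79a at 4.21 ± 0.65 (edgeR adjusted p = 0.00257). Of 7 T cell markers 5 rose, including Cd4 (1.77 ± 0.29, edgeR adjusted p = 0.00186), whose protein binds class II. Of 5 pan-leukocyte markers 3 rose, including Laptm5 (1.59 ± 0.23, edgeR adjusted p = 0.00138). Some of these calls depended on the setting. Of 19 alternatives, Trac lost its call under 13, Cd52 under 10, Coro1a under 8, Cd3e under 6, and Ms4a1 and Cd79a under 5 each. Laptm5 lost it under 2 and Cd4 under 1. Of 9 dendritic cell markers 1 rose, Itgax (1.41 ± 0.34, edgeR adjusted p = 0.0145), lost under 7 of 19 alternatives. The dendritic cell list was mixed, with a median of 0.33 and 5 of 9 above 0, and Batf3 (-0.44) and Clec9a (-0.32) the lowest. In PRELP-/- C1qa (0.80 ± 0.15, edgeR adjusted p = 0.0179), C1qc (0.56 ± 0.14, edgeR adjusted p = 0.0485) and Laptm5 (0.90 ± 0.17, edgeR adjusted p = 0.0159) rose, and no B cell, T cell or dendritic cell marker did. These 3 calls were lost under 8, 13 and 6 of 18 alternatives. The 9 dendritic cell markers had a median of -0.25 in PRELP-/-, with 3 above 0.

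The summed B cell markers were at 3.36 to 4.18 CPM in WT, at 10.3, 68.1 and 67.9 CPM in OMD-/- and at 2.5, 6.85 and 5.65 CPM in PRELP-/-, where PRELP-/- 1 had 2 of the 6 at 0 counts. The summed macrophage markers were at 458 to 511 CPM in WT, at 524, 908 and 931 CPM in OMD-/- and at 444, 550 and 536 CPM in PRELP-/-. The pan-leukocyte sum was at 87.1 to 102 CPM in WT, at 123, 260 and 260 CPM in OMD-/- and at 147, 127 and 127 CPM in PRELP-/-. OMD-/- 2 and 3 were the highest 2 libraries for each of these lists, and OMD-/- 1 lay just above the WT range for macrophage markers. The blood markers (hemoglobins and Alas2) were highest in PRELP-/- 1, at 473 CPM in sum against 35.4 to 69.6 CPM elsewhere.

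Markers of other cells that can carry class II under interferon gamma were read in the same way, beside the same shares of all tested genes (14.3% and 1.4%). Of 6 fibroblast markers, 3 rose in OMD-/- and none fell (edgeR, median 0.73): the collagen genes Col1a1 (1.58 ± 0.17, edgeR adjusted p = 0.000141) and Col1a2 (1.43 ± 0.12, edgeR adjusted p = 2.56e-05) and the growth factor receptor Pdgfra (1.12 ± 0.16, edgeR adjusted p = 0.000736). In PRELP-/- 2 of the 6 rose, Col1a1 (1.31 ± 0.28, edgeR adjusted p = 0.0263) and Col1a2 (1.13 ± 0.27, edgeR adjusted p = 0.0397), each lost under 11 of 18 alternatives. Pdgfra was at 0.65 there and did not pass. The other markers were mixed: Dcn was at 0.33 in OMD-/- and 0.17 in PRELP-/-, Lum at 0.03 and -0.40, and Dpt at -0.66 and -1.42. None of these passed in either knockout by edgeR. The fibroblast sum was at 6298 to 7081 CPM in WT, at 13427, 15903 and 16279 CPM in OMD-/- and at 8297, 15173 and 14813 CPM in PRELP-/-, with all 6 knockout libraries above WT. Much of this sum was Col1a1 and Col1a2, with means of 1980 and 2320 CPM in WT, 5900 and 6280 in OMD-/- and 4970 and 5130 in PRELP-/-. None of 5 endothelium markers passed in either knockout by edgeR, with 4 at an unadjusted p under 0.05 in OMD-/- (median 0.73) and 0 in PRELP-/- (median 0.46). Their sum was at 309, 305, 156 and 143 CPM in WT, at 351, 390 and 408 CPM in OMD-/- and at 199, 370 and 357 CPM in PRELP-/-. Of 10 urothelium markers 3 rose in OMD-/- (edgeR, median 0.30) and 1 in PRELP-/- (median 0.64), and none fell, where 14.3% and 1.4% of all tested genes rose. Their sum was at 13149, 13567, 14954 and 14617 CPM in WT, at 21454, 16034 and 16306 CPM in OMD-/- and at 30295, 18865 and 18141 CPM in PRELP-/-. All 6 knockout libraries were above WT for this sum. The part of any of these cells in the class II levels was not tested.

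**Figure D5:**
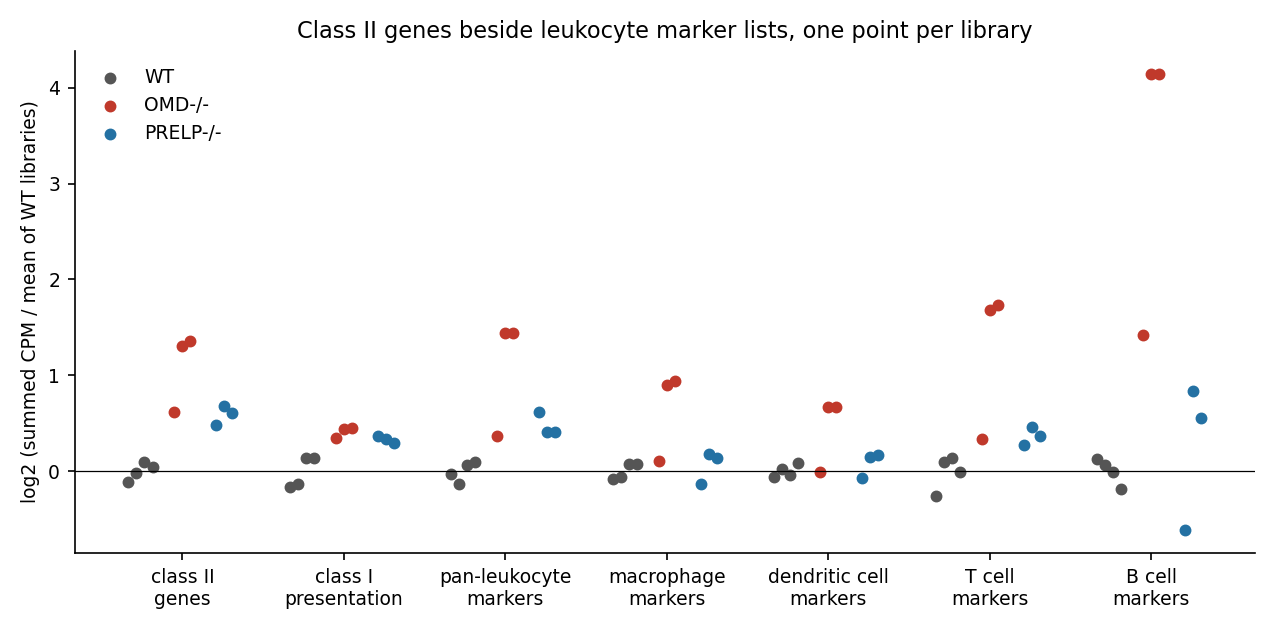
Summed CPM of the class II genes and of listed marker genes, as log2 of the ratio to the WT mean, one point per library, coloured by genotype. In the leukocyte lists the upper pair of OMD-/- points is OMD-/- 2 and 3, whose B cell sums (68.1 and 67.9 CPM) lie farthest from WT (3.36 to 4.18 CPM).

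The class II genes were also set against leukocyte markers within each library. The 4 leading genes had 8.24 to 9.52 times the CPM of the pan-leukocyte list in WT, 10.6, 8.06 and 8.32 times in OMD-/- and 7.91, 10.7 and 10.1 times in PRELP-/-, so the genotypes overlapped. Against the macrophage list the ratio was 1.69 to 1.77 in WT, 2.48, 2.31 and 2.33 in OMD-/- and 2.63, 2.47 and 2.4 in PRELP-/-. All 6 knockout libraries lay above all 4 WT libraries here, but much of the gap came with 1 marker, Lyz2. It was at 193, 179, 243 and 243 CPM in WT, at 159, 318 and 329 CPM in OMD-/- and at 89.9, 156 and 150 CPM in PRELP-/-, and passed in neither comparison (edgeR adjusted p = 0.353 and 0.0912). Without Lyz2 in the list, a choice made after the data had been seen, the ratio was 2.92, 2.88, 3.33 and 3.22 in WT, 3.57, 3.55 and 3.6 in OMD-/- and 3.3, 3.44 and 3.32 in PRELP-/-. PRELP-/- then overlapped WT, and OMD-/- stayed above it by a smaller margin. No test was made of these ratios.

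The genes whose pattern over the 10 libraries was most like the mean pattern of the 9 members were ranked among 15586 genes by Pearson's r of log2 CPM. The first was C1qb, a complement chain and itself on the macrophage list, at 0.990, and others among the first 8 were Dnase1l3 (0.988), Acp5 (0.980), C3ar1 (0.973), Adgre1 (0.966), Ltbp2 (0.965) and Il4ra (0.965). Dnase1l3 was at 1.55 to 1.9 CPM in WT, at 3.53, 10.9 and 11.8 CPM in OMD-/- and at 3.75, 2.8 and 2.85 CPM in PRELP-/-. All libraries share their genotype groups in these correlations, so they describe likeness in 10 points and carry no test. Among the members, H2-Ab1 and H2-Eb1 were most alike (0.99), while Ciita had r of -0.18 (with H2-DMb1) to 0.67 (with Cd74) with the other 8.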

How the data were processed

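Bladder RNA of 10 C57BL/6 libraries was sequenced after poly(A) selection, with a kit that marks the strand and adaptors that carry molecular identifiers. The authors deposited raw integer read counts per gene and library, made with featureCounts. The file headers name HISAT2 alignments, while the submitters' processing notes name STAR 2.5.2b, bcl2fastq, DESeq2 and the builds GRCm38 and hg38. How strand and identifiers were used in counting is not given in the sources used here, so members overlapping a gene on the other strand, and H2-DMb1 beside H2-DMb2, are uncertain. The authors' DESeq2 comparison tables (mean, fold change and p per gene) were not used.

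All 55536 gene identifiers matched GENCODE vM21. The libraries of both groups compared, and no others, entered each fit in R 4.3.3 with edgeR 4.0.16: TMM normalization, its filter on low counts, the robust quasi-likelihood test, two-sided, with Benjamini-Hochberg adjustment over all tested genes and a threshold of 0.05. The scripts were tested on simulated counts with known changes. CPM used TMM-scaled library sizes over all 10 libraries, RPKM merged exon lengths, and correlations log2 CPM with a prior count of 2. Intervals are 95% intervals of one gene without adjustment. Alternatives were other normalizations, no filter, DESeq2 1.42.0, voom of limma 3.58.1, 1 fit over all libraries, a replicate block, a Y gene covariate and leaving out each library.

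Named were all 9 members, up to 4 members per further list with the smallest adjusted p in each comparison, and the 8 genes of most similar pattern, of which 1 is not reported here. Further genes (Ctss, the leukocyte regulators, Irf1, Lyz2, the fibroblast markers, the dendritic cell markers other than Itgax, the neighbours and the genes of H2-DMa and Ciita overlaps) were named after their values were seen. The members and lists were chosen with earlier results of these data known. Replicate numbers correlated over genes by 0.041, -0.0443 and 0.0236 between WT and OMD-/-, by -0.0585, 0.137 and -0.0998 between WT and PRELP-/-, and by 0.303, 0.181 and 0.148 between the knockouts. Only the last were positive for every number, and there PRELP-/- 3 correlated best with OMD-/- 2. Since replicates 2 and 3 were near pairs in both knockouts, these correlations cannot show pairing, and no label states it. All main fits were unpaired, with the block as an alternative in each comparison.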

Additional observations from a re-analysis of the deposited data

How the results depend on the processing

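The direction of the class II rise in OMD-/- held in every alternative for 8 of the 9 genes, and the number of calls did not. Of the 9, 8 passed with RLE or upper quartile scaling, without the filter, with the replicate block and with the Y gene covariate, 9 with DESeq2 or voom, 7 in 1 fit of all libraries, and 6 to 9 with 1 library left out (median 0.89 to 1.22; 2951 to 4850 genes in all against 4899). With OMD-/- 1 alone 3 passed (median 0.54; 1023 genes; Ciita -0.29 and the T cell marker Trac -0.48) and with near pairs summed 4 (1658 genes). The fit of all libraries called 2485 genes in OMD-/- and, by coincidence of number, 2485 in PRELP-/-.

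In PRELP-/- the single call was lost (0 of 9) without the filter, with the replicate block (115 genes), with near pairs summed (13 genes), and against WT 1 and 2 alone (119 genes, median 0.64) or WT 3 and 4 alone (453 genes). DESeq2 called 5 of 9 (2925 of 16581 tested genes) and voom 5 (6973 of 16581). Leaving out 1 library gave 0 to 3 of 9, medians of 0.46 to 0.59 and 475 to 3807 genes. H2-Ob turned negative with voom (-0.15) and against WT 3 and 4 (-0.09) and ranged from -0.12 to 0.17 with 1 library left out, and Ciita turned positive with voom (0.08) and ranged from -0.52 to 0.10 with 1 left out.

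Between the knockouts voom called 8 of 9 (1012 of 15805 tested genes). The number of genes called was 5 without the filter, 54 with DESeq2, 3 in 1 fit, 43 with the replicate block, 4 with the Y gene covariate, 0 with near pairs summed or OMD-/- 1 alone, and 1 to 36 with 1 library left out (median -0.73 to -0.42, 0 of 9 throughout). The median was -0.03 with the Y gene covariate, which overlaps with genotype here, and Cd74 (0.08), H2-Ab1 (0.05) and Ciita (0.45) turned positive there. With OMD-/- 1 alone it was 0.00, with H2-Aa at 0.13, H2-Ab1 at 0.04, H2-DMa at 0.19, H2-DMb1 at 0.00 and Ciita at 0.04. H2-DMb1 ranged from -0.36 to 0.08 with 1 library left out and was 0.05 with near pairs summed. The causes of these shifts were not tested, except that settings with fewer libraries have fewer degrees of freedom.

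The replicate block changed no other member's call, and whether the numbers pair WT with knockout libraries is not known. Settings with near pairs summed, OMD-/- 1 alone or only 2 WT libraries were chosen after the data had been seen. H2-Oa, with 20 to 84 counts per library, and H2-Ob are the members limited most by depth.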
